A study of Mus musculus with 8 samples.

Results

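Cytochrome P450 genes of drug and steroid metabolism were compared between the livers of floxed Bicd2 mice that carried Cre recombinase under the albumin promoter or carried none. The members were the genes whose symbol is Cyp followed by a family number, a subfamily letter and a gene number. Cyp7a1, Cyp7b1, Cyp8b1, Cyp27a1, Cyp4a10 and Cyp4a14, which belong to bile acid synthesis or to PPAR-alpha-driven fatty acid oxidation, were left out by name. This gave 62 genes of the 13703 rows in the table. Of the 73 rows whose symbol begins with Cyp and a digit, 5 others did not have such a symbol (Cyp51, Cyp4a12a, Cyp4a12b, Cyp2d35-ps and Cyp2d36-ps).

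The study sequenced RNA of whole liver in 8 libraries. The 4 Alb-Cre libraries came from mice with both Bicd2 alleles floxed (Bicd2fl/fl) and this Cre (Alb-Cre), which acts in hepatocytes, and the 4 Alb-WT libraries from Bicd2fl/fl mice without Cre. Every mouse of both groups had been given a model of autoimmune hepatitis (AIH). For it, 2.5 mg of S-100, the supernatant of centrifuged liver homogenate, was injected intraperitoneally in complete Freund's adjuvant, 3 times at weekly intervals, and the liver was collected 2 weeks later. No untreated liver was analysed here, so each difference is one between genotypes within the model. The labels give neither sex nor age and do not say that the libraries of a group came from separate mice. The p-values thus reflect only how these libraries vary, which may be technical.

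P450 enzymes are heme proteins, most of them anchored in the endoplasmic reticulum, where they insert an oxygen atom into drugs, steroids, fatty acids and vitamins with electrons passed on by the reductase Por. In liver they are made mainly by hepatocytes, many in zones along the lobule, and the nuclear receptors CAR (Nr1i3), PXR (Nr1i2) and HNF4A, the dioxin receptor AHR and the growth hormone pathway set their transcription. Inflammatory cytokines are known to lower many of them. Levels are in FPKM, which corrects fragment numbers for the length of the gene and the depth of the library, and they are listed in the order of replicates 1 to 4 throughout. Fold changes given as log2 are Alb-Cre minus Alb-WT on the log2(FPKM + 1) scale, which understates changes of low genes, and a gene was called at an adjusted p under 0.05 over all tested rows. The verbs rose and fell mean levels in Alb-Cre relative to Alb-WT among called genes.

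Bicd2 was lower in all Alb-Cre libraries. It stood at 0.705, 0.568, 0.509 and 0.732 FPKM in Alb-Cre and 2.46, 3.02, 2.80 and 3.11 FPKM in Alb-WT. The groups did not overlap, and the mean was 4.53-fold lower (log2 fold change -1.24, SE 0.08, limma adjusted p = 7.25e-05). Hepatocyte markers were high in all libraries, but not at an even level. The Alb-WT sums of 10 such genes lay between 43240 and 44580 FPKM. Alb-Cre replicates 1 to 3 lay above this range (50190 to 51620) and Alb-Cre replicate 4 below it (35420). Of these genes 2 were called higher and 1 lower, and 6 and 3 once Alb-Cre replicate 4 was left out. Alb-Cre replicate 4 stood apart from Alb-Cre replicates 1 to 3. Across the tested P450 genes its correlation with those libraries was 0.968 to 0.969, while they correlated with each other at 0.998 to 0.999, a description over 52 genes that share a library. For the same genes, values for replicate 4 paired with Alb-WT were slightly higher, from 0.971 to 0.974. Pairs of Alb-Cre replicates 1 to 3 with Alb-WT ran from 0.969 to 0.975. Over all 11077 tested rows, replicate 4 was closer to Alb-WT (0.974 to 0.977) than to its own group (0.958 to 0.96). Summed markers of 3 kinds of white blood cell also set replicate 4 apart from its group. The 10 Kupffer cell genes summed to 260.9 to 272.6 FPKM in Alb-Cre replicates 1 to 3, 752.5 FPKM in replicate 4 and 789.8 to 838.1 FPKM in Alb-WT. For 9 monocyte and macrophage genes these values were 102.9 to 113.1, 477.3 and 490.7 to 517.1 FPKM, and for the 6 neutrophil genes that the table holds they were 7.05 to 7.39, 84.9 and 256.6 to 321.8 FPKM. Acute phase and cytokine genes (19) summed to 21460 to 22800 FPKM in Alb-Cre replicates 1 to 3, 46360 FPKM in replicate 4 and 27670 to 29920 FPKM in Alb-WT. Single genes of this list went both ways, with 3 called higher, Saa1 and Saa2 among them, and 3 lower. Without Alb-Cre replicate 4 the counts were 4 and 13 (21.1% and 68.4%). Among all tested rows 8.48% were higher and 23.3% lower, and 15.2% and 46.1% without that library. The hepatocyte counts above are to be read beside these shares too. The part of cell content or acute phase level in the P450 differences was not tested. In whole liver, fewer cells of a type and less RNA per cell cannot be told apart. Calls and counts that Alb-Cre replicate 4 changes are therefore also given without it.

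Of the 62 genes, 52 reached the mean of 0.5 FPKM needed for testing. Of these, 13 rose (25.0%), 10 fell (19.2%) and 29 did not pass. Over all 11077 tested rows 8.48% were called higher and 23.3% lower. Without Alb-Cre replicate 4, 22 P450 genes were higher and 14 lower (42.3% and 26.9%), against a background of 15.2% higher and 46.1% lower of 11046 rows. Counts of calls by subfamily and list given below are to be read beside these shares of all rows. All 13 higher and all 10 lower genes stayed called in that fit, which added 9 and 4. The groups did not overlap in 11 tested genes that were higher and 11 that were lower, beside 9.27% and 21.4% of all tested rows. The median log2 fold change was -0.03 over the tested P450 genes and -0.13 over all tested rows, and 0.04 and -0.16 without Alb-Cre replicate 4. The split of the calls moved with the scaling. Of the called P450 genes 56.5% were higher here, 43.5% (10 higher, 13 lower) once all libraries were scaled to equal FPKM sums and 75.0% (15 higher, 5 lower) after median-of-ratios scaling. The median of all rows was -0.19 and -0.01 under those scalings.

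**Figure D1:**
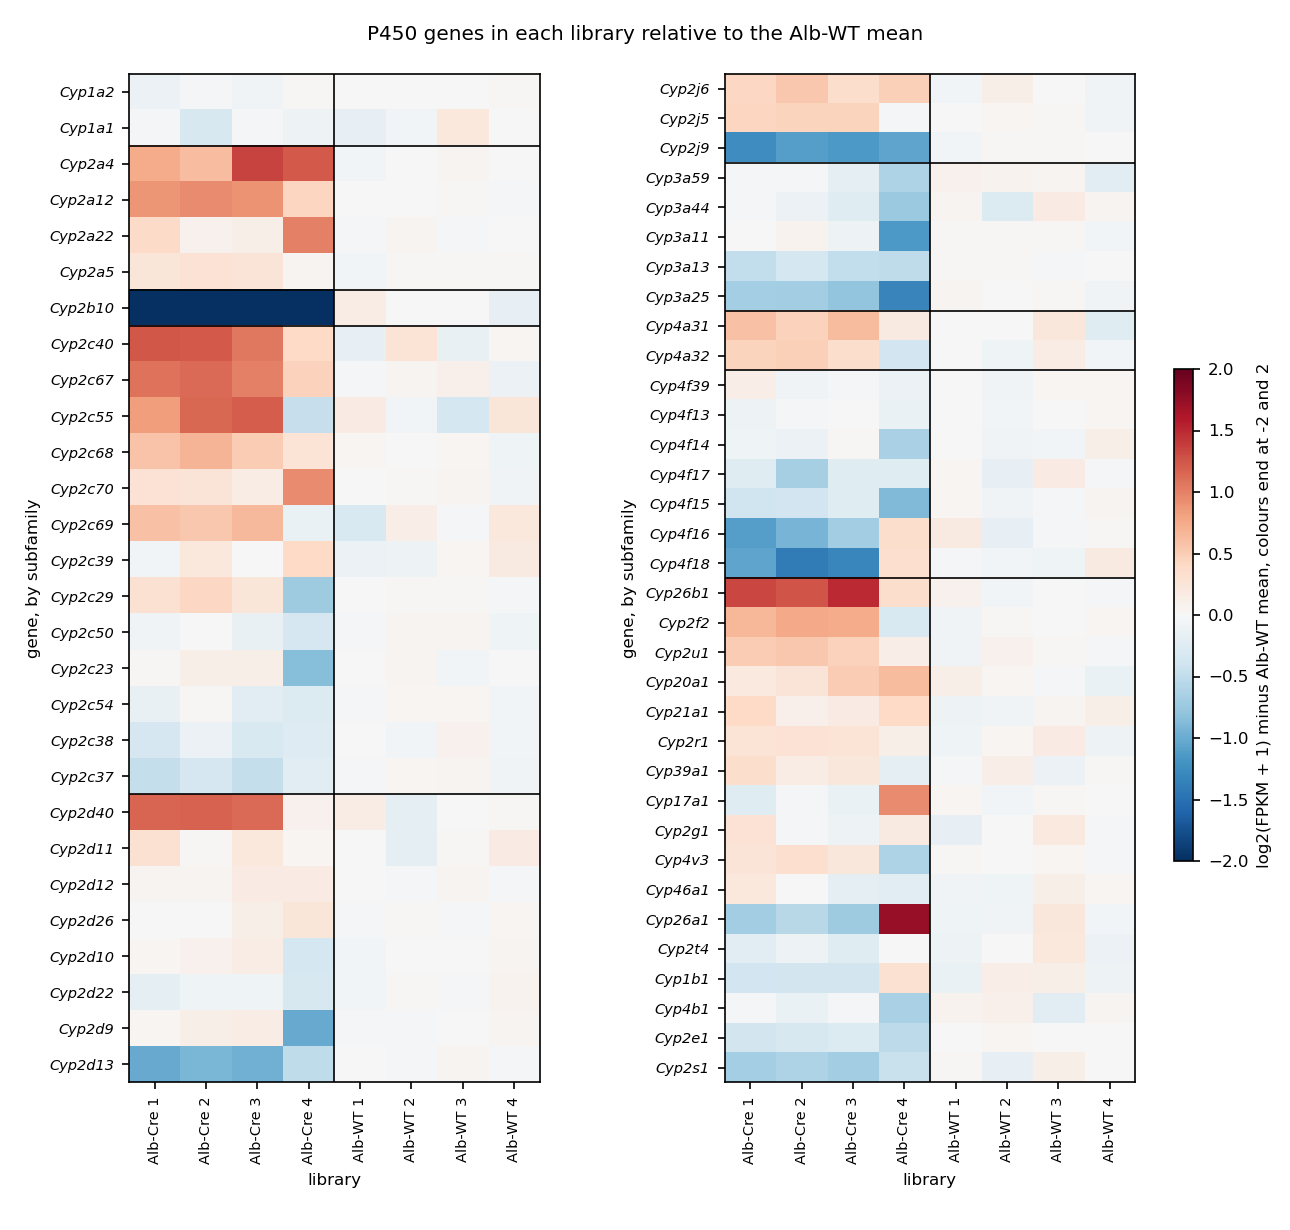
Level of each of the 62 genes (rows, grouped by subfamily) in each of the 8 libraries (columns), as log2(FPKM + 1) minus the Alb-WT mean, red higher and blue lower. Alb-Cre replicates 1 to 3 look alike, and Alb-Cre replicate 4 lies below all 3 of them in 36 genes, above them in 18 and among them in 8.

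The summed P450 level of Alb-Cre replicates 1 to 3 was 1.01 times the Alb-WT mean, and that of replicate 4 was 0.772 times it. Summed FPKM over the 62 genes came to 6872, 7163, 6978 and 5335 in Alb-Cre and 6870, 6995, 6946 and 6837 in Alb-WT, so that only Alb-Cre replicate 4 lay below the Alb-WT range. The 18 genes that averaged 100 FPKM or more carry most of this sum. Among them 2 rose (Cyp2a12 and Cyp2c67), 4 fell (Cyp3a25, Cyp3a13, Cyp2e1 and Cyp2c37) and 12 did not pass, whereas without Alb-Cre replicate 4 the counts were 6 higher, 4 lower and 8 not passed. This library was below the other Alb-Cre libraries in 14 of these 18 genes and above them in 4.

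Sequences of the Cyp2c genes are shown first because neighbours in that family moved in opposite directions. In order along chromosome 19 the listed genes are Cyp2c55, Cyp2c29, Cyp2c38, Cyp2c39, Cyp2c67, Cyp2c68, Cyp2c40, Cyp2c69, Cyp2c37, Cyp2c54, Cyp2c50, Cyp2c70 and Cyp2c23. Over their coding sequences (GENCODE M21) Cyp2c67, Cyp2c68, Cyp2c40 and Cyp2c69 form a group of near copies, with 98.1% identity between Cyp2c40 and Cyp2c68 and 97.7% between Cyp2c67 and Cyp2c69. Cyp2c37, Cyp2c50 and Cyp2c54 form another, with 96.1% between Cyp2c37 and Cyp2c50. The 90 coding bases around the conserved cysteine that holds the heme iron show both groups, with capitals at bases that differ from Cyp2c67. Cyp2c40 and Cyp2c69 equal Cyp2c67 over this stretch, Cyp2c68 differs at 1 base, Cyp2c37 and Cyp2c54 at 14 and Cyp2c50 at 12.
Cyp2c67: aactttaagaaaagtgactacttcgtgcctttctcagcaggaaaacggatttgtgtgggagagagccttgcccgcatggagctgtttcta
Cyp2c68: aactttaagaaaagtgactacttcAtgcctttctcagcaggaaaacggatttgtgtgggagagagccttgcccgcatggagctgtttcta
Cyp2c37: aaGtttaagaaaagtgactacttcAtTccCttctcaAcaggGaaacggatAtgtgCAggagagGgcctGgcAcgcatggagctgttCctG
Cyp2c54: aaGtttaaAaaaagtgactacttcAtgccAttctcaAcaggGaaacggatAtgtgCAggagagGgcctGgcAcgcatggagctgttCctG
Cyp2c50: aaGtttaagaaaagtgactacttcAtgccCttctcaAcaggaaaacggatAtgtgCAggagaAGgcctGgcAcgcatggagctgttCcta

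The bases upstream of the gene starts follow the same grouping. Over 250 bases before the RefSeq start (GRCm38.p6), identity at aligned positions was 92.9% to 98.6% among Cyp2c67, Cyp2c68, Cyp2c40 and Cyp2c69, 87.8% between Cyp2c37 and Cyp2c50 and 67.2% to 76.3% between the groups. The last 150 bases before the start are printed for 5 of these genes, read along the gene's strand, with matches to CAAAGTCCA, a form of the HNF4A binding motif, and to TATAAA and GCGTG, the core letters of AHR elements, in capitals on either strand. They lie at chr19:39649043-39649192, chr19:39741102-39741251 and chr19:39812815-39812964, all on the minus strand, and at chr19:39992274-39992423 and chr19:40089529-40089678 on the plus strand. No printed match overlaps another, and the stretches of Cyp2c37 and Cyp2c50 hold none.
Cyp2c67: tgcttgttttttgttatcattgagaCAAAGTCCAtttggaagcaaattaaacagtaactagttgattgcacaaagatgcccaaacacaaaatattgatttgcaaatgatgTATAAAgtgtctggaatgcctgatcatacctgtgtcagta
Cyp2c68: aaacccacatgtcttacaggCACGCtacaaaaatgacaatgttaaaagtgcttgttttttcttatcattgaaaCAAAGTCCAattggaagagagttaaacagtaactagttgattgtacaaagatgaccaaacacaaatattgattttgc
Cyp2c40: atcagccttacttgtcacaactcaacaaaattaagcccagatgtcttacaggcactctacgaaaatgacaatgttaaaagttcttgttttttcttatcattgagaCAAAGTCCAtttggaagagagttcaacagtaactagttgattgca
Cyp2c37: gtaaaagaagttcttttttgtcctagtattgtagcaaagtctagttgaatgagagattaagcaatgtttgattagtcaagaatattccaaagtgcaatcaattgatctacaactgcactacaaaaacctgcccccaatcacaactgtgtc
Cyp2c50: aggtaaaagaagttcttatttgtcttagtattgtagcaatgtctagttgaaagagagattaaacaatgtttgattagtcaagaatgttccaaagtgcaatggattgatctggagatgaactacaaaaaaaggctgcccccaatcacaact

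CAAAGTCCA or its reverse complement lies in the promoter windows (the 250 bases before the start) of 6 of the 50 P450 genes with a RefSeq promoter. These are Cyp2c67, Cyp2c68, Cyp2c40, Cyp2c69, Cyp2c70 and Cyp3a11, and the motif lies in 0.38% of all 32851 windows. Cyp2c67, Cyp2c68, Cyp2c40 and Cyp2c69 are near copies in these windows too, so their matches are not independent. Cyp2c69, Cyp2c70 and Cyp3a11 were not called with all libraries. AGGTCA, a nuclear receptor half-site, lies in 10 of the 50 P450 windows and 14.0% of all, GCGTG in 22.0% and 28.2%, TATAAA in 44.0% and 12.4%, and TTCNNNGAA, the STAT5 motif, in 4.0% and 7.02%. These matches describe letters and show no binding.

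In the Cyp2c subfamily 3 of 13 genes rose (Cyp2c67, Cyp2c68 and Cyp2c40), 2 fell (Cyp2c37 and Cyp2c38) and 8 did not pass, and without Alb-Cre replicate 4 the counts were 7 higher and 2 lower. Enzymes of this subfamily oxidise drugs, arachidonic acid and retinoids. Cyp2c67 stood at 176, 182, 166 and 114 FPKM in Alb-Cre and 80.0, 84.9, 88.4 and 75.9 FPKM in Alb-WT. All Alb-Cre libraries were above all Alb-WT libraries, with replicate 4 the nearest to them, and the mean was 1.93-fold higher (log2 fold change 0.92, SE 0.14, limma adjusted p = 0.00333). Cyp2c68 stood at 114, 123, 109.5 and 92.4 FPKM in Alb-Cre and 78.4, 76.8, 78.4 and 72.0 FPKM in Alb-WT. Again no Alb-Cre library lay within the Alb-WT range (log2 fold change 0.51, SE 0.09, limma adjusted p = 0.00572). Cyp2c40, a low gene, stood at 4.73, 4.66, 4.02 and 2.17 FPKM in Alb-Cre and 1.14, 1.92, 1.18 and 1.48 FPKM in Alb-WT, and the groups did not overlap (log2 fold change 0.98, SE 0.19, limma adjusted p = 0.00843). Their near copy Cyp2c69 was at 1.91 to 2.11 FPKM in Alb-Cre replicates 1 to 3 and 0.822 FPKM in replicate 4, within the Alb-WT range of 0.611 to 1.31 FPKM. It did not pass with all libraries (log2 fold change 0.41, limma adjusted p = 0.114) and was higher without that library (log2 fold change 0.59, limma adjusted p = 0.00123). With copies this alike, the counting could have split fragments among them, and the levels of single copies are uncertain.

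The next neighbour, Cyp2c37, went the other way. It stood at 89.8, 99.0, 89.2 and 108 FPKM in Alb-Cre and 123, 129, 129 and 119 FPKM in Alb-WT. Every Alb-Cre library lay below the Alb-WT range, and the mean was 1.30-fold lower (log2 fold change -0.37, SE 0.08, limma adjusted p = 0.0101). The call ended under median-of-ratios scaling (adjusted p = 0.0537). Its copies Cyp2c54 (log2 fold change -0.15) and Cyp2c50 (-0.14) did not pass, with or without Alb-Cre replicate 4. Cyp2c38 had 8.03 ± 0.613 against 9.76 ± 0.528 FPKM (SD, n = 4 each) and a log2 fold change of -0.25 (limma adjusted p = 0.0273). That call ended without Alb-Cre replicate 1 or 3 or Alb-WT replicate 1, 2 or 3 (adjusted p 0.0535 to 0.0799) and under median-of-ratios and quantile scaling (0.37 and 0.177).

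Cyp2c29, the most abundant Cyp2c gene by mean level, is an epoxygenase of arachidonic acid. It stood at 425, 461, 411 and 210.4 FPKM in Alb-Cre and 343, 351, 349.7 and 338 FPKM in Alb-WT. Alb-Cre replicates 1 to 3 were above and replicate 4 far below the Alb-WT range, so that the gene did not pass (log2 fold change 0.06, limma adjusted p = 0.844) but was called higher without replicate 4 (log2 fold change 0.32, limma adjusted p = 0.000201). Cyp2c70, which makes the muricholic acids of the mouse, was at 276 to 302 FPKM in Alb-Cre replicates 1 to 3 and 481 FPKM in replicate 4, against 237 to 256 FPKM in Alb-WT. Here the groups did not overlap, the spread within Alb-Cre was wide, and the call came only without replicate 4 (log2 fold change 0.41, limma adjusted p = 0.0775 with it and log2 fold change 0.23, limma adjusted p = 0.00187 without it). Cyp2c55 behaved like Cyp2c29 at a lower level, with 3.06 to 4.25 FPKM, 0.653 FPKM and 0.783 to 1.68 FPKM in the same order (log2 fold change 0.68, limma adjusted p = 0.147 with replicate 4 and log2 fold change 1.07, limma adjusted p = 9.68e-05 without it). Cyp2c23 had a log2 fold change of -0.15 and did not pass either way, and the remaining gene Cyp2c39, named after its values were seen, averaged below 1 FPKM and did not pass.

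**Figure D2:**
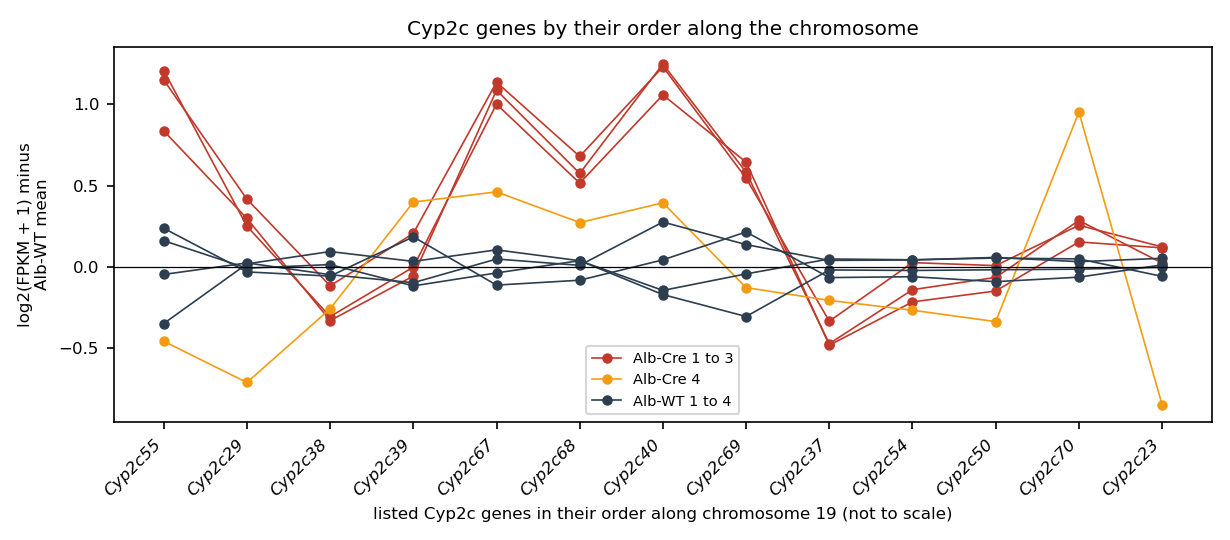
The 13 Cyp2c genes in their order along chromosome 19 (x axis, not to scale), with each library's log2(FPKM + 1) minus the Alb-WT mean (y axis), one line per library. Alb-Cre replicates 1 to 3 (red) lie above the Alb-WT libraries from Cyp2c67 to Cyp2c69 and below them at Cyp2c37, and Alb-Cre replicate 4 (orange) departs from its group most at Cyp2c55, Cyp2c29 and Cyp2c23.

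Cyp2b10, the classic gene induced through CAR by phenobarbital, had the largest change of the tested P450 genes in either direction on the log2(FPKM + 1) scale. By the ratio of mean FPKM the low gene Cyp2a4 changed more (11.4-fold higher). Cyp2b10 stood at 1.13, 2.01, 1.84 and 2.18 FPKM in Alb-Cre and 14.1, 12.5, 12.7 and 11.2 FPKM in Alb-WT. All 4 Alb-Cre libraries, replicate 4 included, were far below all Alb-WT libraries, and the mean was 7.06-fold lower (log2 fold change -2.30, SE 0.13, limma adjusted p = 4.03e-05). The call held without each library in turn and under every alternative tried. It is the only Cyp2b gene in the table, and other Cyp2b genes are not analysed here. The CAR gene Nr1i3 itself stood at 1.71, 1.77, 1.82 and 2.21 FPKM in Alb-Cre and 3.46, 3.69, 4.30 and 3.72 FPKM in Alb-WT, also without overlap (log2 fold change -0.74, SE 0.08, limma adjusted p = 0.000759).

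All 3 tested Cyp2a genes rose, with and without Alb-Cre replicate 4. Of these, Cyp2a4 reached the level needed for testing only through Alb-Cre (mean 1.25 against 0.109 FPKM), so it could be called only as a rise. Cyp2a12, which hydroxylates steroids and bile acids, stood at 149.9, 157, 150.3 and 108 FPKM in Alb-Cre and 80.2, 80.6, 81.8 and 79.2 FPKM in Alb-WT. The Alb-WT libraries lay close together and every Alb-Cre library was above them, replicate 4 by the least. The mean was 1.76-fold higher (log2 fold change 0.79, SE 0.11, limma adjusted p = 0.00234). Cyp2a5, the coumarin and nicotine hydroxylase, averaged 84.9 ± 6.18 against 73.1 ± 1.87 FPKM (SD, n = 4 each) (log2 fold change 0.21, SE 0.07, limma adjusted p = 0.0449). That small rise was lost without any library other than Alb-Cre replicate 4 (adjusted p 0.0843 to 0.117), and after common-sum or quantile scaling (0.121 and 0.33). Cyp2a4, a steroid 15-alpha hydroxylase known as female-biased and named after its values were seen, stood at 0.860, 0.705, 1.84 and 1.59 FPKM in Alb-Cre and 0.0686, 0.104, 0.156 and 0.109 FPKM in Alb-WT, from 4 to 114 fragments. The groups did not overlap (log2 fold change 0.99, SE 0.16, limma adjusted p = 0.00373). Its coding sequence is 98.5% identical to that of the far more abundant Cyp2a5, so the split of fragments between them is uncertain. The 90 bases around the cysteine differ at 1 base, in capitals.
Cyp2a4: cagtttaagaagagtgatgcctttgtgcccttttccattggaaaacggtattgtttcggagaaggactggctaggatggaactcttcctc
Cyp2a5: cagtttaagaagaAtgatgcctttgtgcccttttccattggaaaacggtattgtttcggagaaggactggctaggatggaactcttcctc

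The fourth Cyp2a gene, Cyp2a22, was below the level needed for testing and stood at 0.345, 0.0954, 0.122 and 1.08 FPKM in Alb-Cre and 0.0173, 0.0747, 0.0175 and 0.0392 FPKM in Alb-WT. Its Alb-Cre libraries were all higher, but it shares 97% of its coding bases with Cyp2a12.

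In the Cyp3a subfamily, the main drug and steroid 6-beta hydroxylases under PXR, 2 of 5 genes fell and none rose, with and without Alb-Cre replicate 4. Cyp3a25 averaged 164 ± 31.2 against 297 ± 10.6 FPKM (SD, n = 4 each), 1.81-fold lower (log2 fold change -0.87, SE 0.14, limma adjusted p = 0.00353). It was 171 to 185 FPKM in Alb-Cre replicates 1 to 3, 118 FPKM in replicate 4 and 282 to 307 FPKM in Alb-WT, with no overlap. Cyp3a13 stood at 83.3, 91.1, 83.3 and 82.3 FPKM in Alb-Cre and 119, 118, 115 and 116 FPKM in Alb-WT. Here replicate 4 was level with the other Alb-Cre libraries, and the mean was 1.38-fold lower (log2 fold change -0.46, SE 0.06, limma adjusted p = 0.00147). Both calls held without each library in turn and under every alternative tried.

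Cyp3a11, the most abundant of the subfamily, stood at 909, 959.6, 853 and 411 FPKM in Alb-Cre and 928, 926, 924 and 876 FPKM in Alb-WT. Alb-Cre replicates 1 to 3 spanned the Alb-WT range, while replicate 4 was 2.21-fold below their mean. It did not pass with that library (log2 fold change -0.30, limma adjusted p = 0.365) or without it (log2 fold change -0.01, limma adjusted p = 0.85). Cyp3a59 (log2 fold change -0.22) and Cyp3a44 (-0.28) did not pass either way. Cyp3a59 shares 97.5% of its coding bases with Cyp3a25, and Cyp3a44 94.9% with Cyp3a11. The sum over the subfamily was 0.884 of the Alb-WT mean in Alb-Cre replicates 1 to 3, and only 0.463 of it in replicate 4.

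Among the Cyp2d genes, counterparts of the human drug enzyme CYP2D6, 1 of 6 tested genes rose and 1 fell. No full coding sequence was found in GENCODE M21 for Cyp2d13, which fell, while 61 of the 62 genes had one. For Cyp2d40, which rose, it spanned 1017 bases, against 1503 to 1515 in the other Cyp2d genes with one. Whether either yields a working enzyme was not tested. Cyp2d13 stood at 27.4, 29.4, 28.3 and 38.9 FPKM in Alb-Cre and 55.8, 54.9, 57.8 and 55.3 FPKM in Alb-WT. No Alb-Cre library reached the Alb-WT range, replicate 4 coming closest, and the mean was 1.80-fold lower (log2 fold change -0.85, SE 0.11, limma adjusted p = 0.00121). Cyp2d40 stood at 63.4, 64.1, 61.7 and 29.3 FPKM in Alb-Cre and 30.7, 24.3, 27.6 and 28.1 FPKM in Alb-WT. Replicates 1 to 3 of Alb-Cre were all above the Alb-WT libraries and replicate 4 lay among them (log2 fold change 0.89, SE 0.23, limma adjusted p = 0.0223). The call ended without Alb-Cre replicate 1, 2 or 3 or Alb-WT replicate 2, 3 or 4 (adjusted p 0.052 to 0.0649), and it was strongest without Alb-Cre replicate 4 (log2 fold change 1.16, limma adjusted p = 2.81e-07).

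Cyp2d10, with the highest mean of the subfamily, stood at 404, 415, 433 and 308 FPKM in Alb-Cre and 379.6, 391, 393 and 406 FPKM in Alb-WT and did not pass (log2 fold change -0.02, limma adjusted p = 0.899). Cyp2d9, a male-biased testosterone 16-alpha hydroxylase, was at 382 to 414 FPKM in Alb-Cre replicates 1 to 3, 184 FPKM in replicate 4 and 365 to 385 FPKM in Alb-WT, and did not pass with or without that library (log2 fold change -0.18, limma adjusted p = 0.584 and log2 fold change 0.10, limma adjusted p = 0.0613). Cyp2d26 (log2 fold change 0.08) and Cyp2d22 (-0.17) did not pass either way. Cyp2d11 and Cyp2d12 were below the level needed for testing, and Cyp2d12 stood at 0.0943, 0.1001, 0.180 and 0.184 FPKM in Alb-Cre and 0.0461, 0.0398, 0.0929 and 0.0417 FPKM in Alb-WT, without overlap.

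The 3 Cyp2j genes, epoxygenases of arachidonic acid, split. Cyp2j9 fell in every Alb-Cre library, standing at 0.923, 1.10, 1.04 and 1.17 FPKM in Alb-Cre and 3.38, 3.62, 3.59 and 3.53 FPKM in Alb-WT. Replicate 4 again lay with its group, and the mean was 3.33-fold lower (log2 fold change -1.14, SE 0.07, limma adjusted p = 4.39e-05). Cyp2j6 stood at 22.2, 24.4, 21.3 and 23.3 FPKM in Alb-Cre and 15.9, 18.0, 16.6 and 15.6 FPKM in Alb-WT, all Alb-Cre libraries above all Alb-WT libraries (log2 fold change 0.44, SE 0.07, limma adjusted p = 0.00336). Both calls held without each library in turn. Cyp2j5, the abundant hepatic member, stood at 247, 249, 251 and 178 FPKM in Alb-Cre and 184, 188, 186 and 174 FPKM in Alb-WT. It was higher in Alb-Cre replicates 1 to 3 only, did not pass with all libraries (log2 fold change 0.32, limma adjusted p = 0.0612) and was called without replicate 4 (log2 fold change 0.44, limma adjusted p = 8.6e-06).

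**Figure D3:**
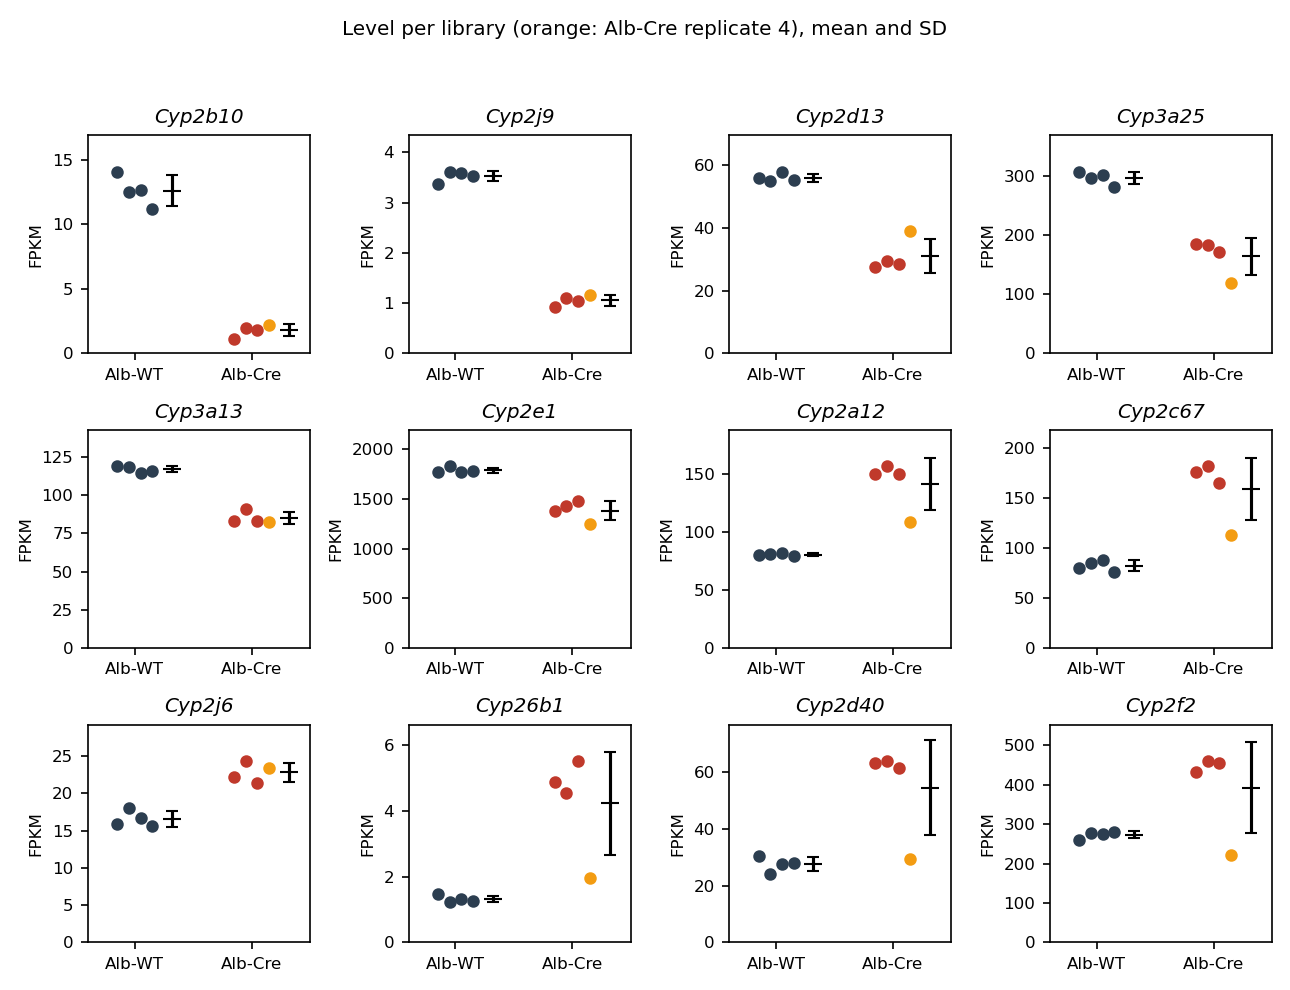
FPKM (y axis, from 0) of 12 P450 genes in each library, Alb-WT in dark blue, Alb-Cre replicates 1 to 3 in red and Alb-Cre replicate 4 in orange, with bars for mean and SD (n = 4). In Cyp2b10, Cyp2j9 and Cyp3a13 replicate 4 lies with its group, in Cyp2d40 it lies in the Alb-WT range and in Cyp2f2 below it.

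Cyp1a2, the AHR-driven oxidase of caffeine and aromatic amines, did not pass. It stood at 234, 249, 242 and 257 FPKM in Alb-Cre and 253, 252, 252 and 257 FPKM in Alb-WT, with overlap between the groups (log2 fold change -0.05, limma adjusted p = 0.567, and log2 fold change -0.07, limma adjusted p = 0.147 without Alb-Cre replicate 4). Cyp1a1, the most AHR-sensitive P450 gene, was below the level needed for testing. Of 6 tested AHR targets outside the P450 genes, 2 rose (Gsta1, log2 fold change 2.38, and Gsta2, 1.08) and 2 fell (Ugt1a6a, -0.55, and Ugt1a6b, -0.47), and without Alb-Cre replicate 4 the counts were 2 higher and 4 lower. Among all tested rows 8.48% were higher and 23.3% lower, and 15.2% and 46.1% without that library. Gsta1 was at 3.10 to 4.87 FPKM in Alb-Cre replicates 1 to 3, 29.9 FPKM in replicate 4 and 0.484 to 0.565 FPKM in Alb-WT, so that its mean was 20.5-fold higher with replicate 4 and 7.90-fold without it (log2 fold change 1.72, limma adjusted p = 3.87e-07). The Gsta2 call ended without Alb-Cre replicate 1 or Alb-WT replicate 2, 3 or 4 (adjusted p 0.0535 to 0.0552).

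Cyp4a and Cyp4f enzymes hydroxylate the ends of fatty acids, and Cyp4f enzymes also inactivate leukotriene B4. Cyp4a31 stood at 1.77, 1.55, 1.85 and 1.09 FPKM in Alb-Cre and 0.856, 0.851, 1.16 and 0.559 FPKM in Alb-WT and was called higher (log2 fold change 0.47, SE 0.13, limma adjusted p = 0.0265), although Alb-Cre replicate 4 lay within the Alb-WT range. The call ended without Alb-Cre replicate 1, 2 or 3 or Alb-WT replicate 1, 2 or 4 (adjusted p 0.0593 to 0.0745). Its near copy Cyp4a32 (96% of coding bases) stood at 8.99, 9.22, 8.43 and 4.64 FPKM in Alb-Cre and 6.29, 5.94, 7.12 and 6.12 FPKM in Alb-WT. It was higher in Alb-Cre replicates 1 to 3 and lower in replicate 4, and passed only without that library (log2 fold change 0.22, limma adjusted p = 0.352 with it and log2 fold change 0.43, limma adjusted p = 0.000348 without it).

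Of 6 tested Cyp4f genes 2 fell and none rose, and 4 were lower without Alb-Cre replicate 4. Cyp4f15 stood at 38.2, 38.4, 42.4 and 26.9 FPKM in Alb-Cre and 52.0, 48.2, 49.4 and 52.4 FPKM in Alb-WT, without overlap (log2 fold change -0.48, SE 0.13, limma adjusted p = 0.0237). The call ended without Alb-Cre replicate 1 or any 1 Alb-WT library (adjusted p 0.0504 to 0.0649) and under median-of-ratios scaling (0.193). Cyp4f17 averaged 3.81 ± 0.653 against 5.09 ± 0.570 FPKM (SD, n = 4 each) and was just past the threshold (log2 fold change -0.35, SE 0.12, limma adjusted p = 0.0495). It was not called without any library other than Alb-Cre replicate 4 (adjusted p 0.0589 to 0.129) or under 5 other settings (adjusted p 0.0516 to 0.217). Cyp4f14, the most abundant Cyp4f gene, stood at 65.9, 64.7, 71.4 and 44.5 FPKM in Alb-Cre and 69.9, 66.8, 67.8 and 76.3 FPKM in Alb-WT. Only replicate 4 was below the Alb-WT range by a wide margin, and the gene did not pass (log2 fold change -0.20, limma adjusted p = 0.267). Cyp4f13 did not pass either (log2 fold change -0.07).

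Cyp4f18, which inactivates leukotriene B4 in neutrophils, and Cyp4f16 were low in Alb-Cre replicates 1 to 3 only. Cyp4f18 stood at 0.329, 0.0483, 0.121 and 2.49 FPKM in Alb-Cre and 1.70, 1.65, 1.60 and 2.14 FPKM in Alb-WT, with as few as 3 fragments. Replicate 4 was above the Alb-WT range and the other Alb-Cre libraries were below it. Cyp4f16 was at 0.457 to 0.930 FPKM in Alb-Cre replicates 1 to 3, 2.99 FPKM in replicate 4 and 1.81 to 2.54 FPKM in Alb-WT. Neither passed with all libraries (limma adjusted p = 0.0801 and 0.125), and both were lower without replicate 4 (log2 fold change -1.25 and -0.91, limma adjusted p = 2.2e-06 and 4.33e-05). Cyp1b1, an AHR target of stromal cells named after its values were seen, had the same order, at 0.292 to 0.297 FPKM, 1.08 FPKM and 0.531 to 0.837 FPKM (log2 fold change -0.20, limma adjusted p = 0.348, and log2 fold change -0.38, limma adjusted p = 0.00303 without replicate 4). Without replicate 4, Cyp4f18 (mean 0.166 against 1.77 FPKM) and Cyp1b1 (0.295 against 0.686 FPKM) reached the testing level only through Alb-WT. In that fit both could be called only as falls. The marker sums given above for Kupffer cells, monocytes and neutrophils were likewise low in Alb-Cre replicates 1 to 3. In replicate 4 each sum was higher but still below Alb-WT, slightly for Kupffer cells and monocytes and far for neutrophils. Single genes differed. Clec4f was at 72.2 FPKM in replicate 4 against 101.5 to 111.6 FPKM in Alb-WT, and Marco at 125.4 against 83.1 to 90.4 FPKM. All 10 Kupffer cell genes, 7 of 9 monocyte and macrophage genes and all 5 tested neutrophil genes fell with all libraries, and 10, 9 and 5 without Alb-Cre replicate 4. Without any other single library 6, 5 and 4 of them were called lower. Mmp9 reached the testing level only through Alb-WT (mean 0.306 against 1.34 FPKM), so it could be called only as a fall. Without Alb-Cre replicate 4 the same held for Mmp9, Elane, Csf3r, Chil3, Itgam, Itgax, Ccr2 and Ly6c2 (Alb-Cre means 0.165 to 0.379 FPKM). It also held there for Tnf of the acute phase and cytokine list (0.120 against 0.887 FPKM). The part of these cells in these P450 values was not tested.

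The remaining subfamilies hold 17 genes, of which 12 were tested, 4 rose and 1 fell (7 higher and 3 lower without Alb-Cre replicate 4). Cyp2e1, the enzyme of ethanol and acetaminophen and the P450 gene with the highest level here, stood at 1381, 1429, 1478 and 1249 FPKM in Alb-Cre and 1774, 1830, 1776 and 1778 FPKM in Alb-WT. All Alb-Cre libraries were below all Alb-WT libraries, and the mean was 1.29-fold lower (log2 fold change -0.37, SE 0.08, limma adjusted p = 0.014). The call ended under median-of-ratios scaling (adjusted p = 0.239). Cyp2f2, an oxidase of naphthalene typical of periportal hepatocytes, stood at 432, 461, 456 and 221 FPKM in Alb-Cre and 259.5, 279, 275 and 280.2 FPKM in Alb-WT. Alb-Cre replicates 1 to 3 were above the Alb-WT range and replicate 4 below it, and the gene passed only without that library (log2 fold change 0.46, limma adjusted p = 0.131 with it and log2 fold change 0.72, limma adjusted p = 3.75e-07 without it).

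Cyp26b1 and Cyp26a1, the enzymes that break down retinoic acid, differed in pattern. Cyp26b1 stood at 4.87, 4.56, 5.52 and 1.97 FPKM in Alb-Cre and 1.47, 1.24, 1.32 and 1.27 FPKM in Alb-WT. Every Alb-Cre library was above the Alb-WT range, replicate 4 the nearest to it, and the mean was 3.20-fold higher (log2 fold change 1.11, SE 0.22, limma adjusted p = 0.0085). Cyp26a1 was at 2.30 to 2.68 FPKM in Alb-Cre replicates 1 to 3, below the 4.08 to 5.30 FPKM of Alb-WT, and at 17.1 FPKM in replicate 4, above it. With that library the log2 fold change was -0.06 (limma adjusted p = 0.939) and without it -0.66 (limma adjusted p = 0.000104).

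Cyp2u1, a fatty acid hydroxylase known as male-biased in mouse liver, stood at 4.61, 4.76, 4.48 and 3.36 FPKM in Alb-Cre and 2.77, 3.21, 3.04 and 2.85 FPKM in Alb-WT, without overlap (log2 fold change 0.41, SE 0.10, limma adjusted p = 0.0166). The call ended without Alb-Cre replicate 1 or Alb-WT replicate 1 (adjusted p 0.0517 to 0.0521). Cyp20a1, an orphan enzyme, stood at 5.74, 6.06, 7.38 and 8.09 FPKM in Alb-Cre and 5.41, 5.07, 4.73 and 4.38 FPKM in Alb-WT, also without overlap (log2 fold change 0.40, SE 0.11, limma adjusted p = 0.0257). It was not called without Alb-Cre replicate 3 or Alb-WT replicate 2, 3 or 4 (adjusted p 0.0545 to 0.0731), or after common-sum scaling (0.0796). The vitamin D 25-hydroxylase Cyp2r1 averaged 9.38 ± 0.565 against 7.81 ± 0.790 FPKM (SD, n = 4 each) and was just past the threshold (log2 fold change 0.24, SE 0.08, limma adjusted p = 0.0495). That call ended without Alb-Cre replicate 1, 2 or 3 or Alb-WT replicate 1, 2 or 4 (adjusted p 0.0885 to 0.127) and under common-sum scaling, voom and no filter (0.146, 0.0667 and 0.0552).

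Cyp4v3, a fatty acid hydroxylase, stood at 101, 108, 99.8 and 54.7 FPKM in Alb-Cre and 85.9, 83.9, 86.9 and 82.6 FPKM in Alb-WT. It was higher in Alb-Cre replicates 1 to 3 and lower in replicate 4, passing only without that library (log2 fold change 0.05, limma adjusted p = 0.856 with it and log2 fold change 0.27, limma adjusted p = 0.000395 without it). The oxysterol hydroxylase Cyp39a1 also passed only then (log2 fold change 0.14, limma adjusted p = 0.371 with it and log2 fold change 0.24, limma adjusted p = 0.0166 without it). Cyp4b1 (log2 fold change -0.20) and the steroid 17-alpha hydroxylase Cyp17a1 (0.14) did not pass either way. Cyp17a1 was at 6.04 FPKM in Alb-Cre replicate 4, above the 2.08 to 2.55 FPKM of the other Alb-Cre libraries and the 2.52 to 2.73 FPKM of Alb-WT.

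The 10 genes below the testing level averaged 0.0974 to 0.415 FPKM, with 2 to 145 fragments per library. They were Cyp1a1, Cyp2a22, Cyp2d11, Cyp2d12, Cyp4f39, Cyp21a1, Cyp2g1, Cyp2s1, Cyp2t4 and Cyp46a1. The groups did not overlap in Cyp2a22 and Cyp2d12, which were higher, and in Cyp2s1, which was lower. How often this occurred among all rows below the testing level was not computed. Cyp2s1, named after its values were seen, stood at 0.0618, 0.109, 0.0566 and 0.253 FPKM in Alb-Cre and 0.743, 0.526, 0.858 and 0.716 FPKM in Alb-WT.

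**Figure D4:**
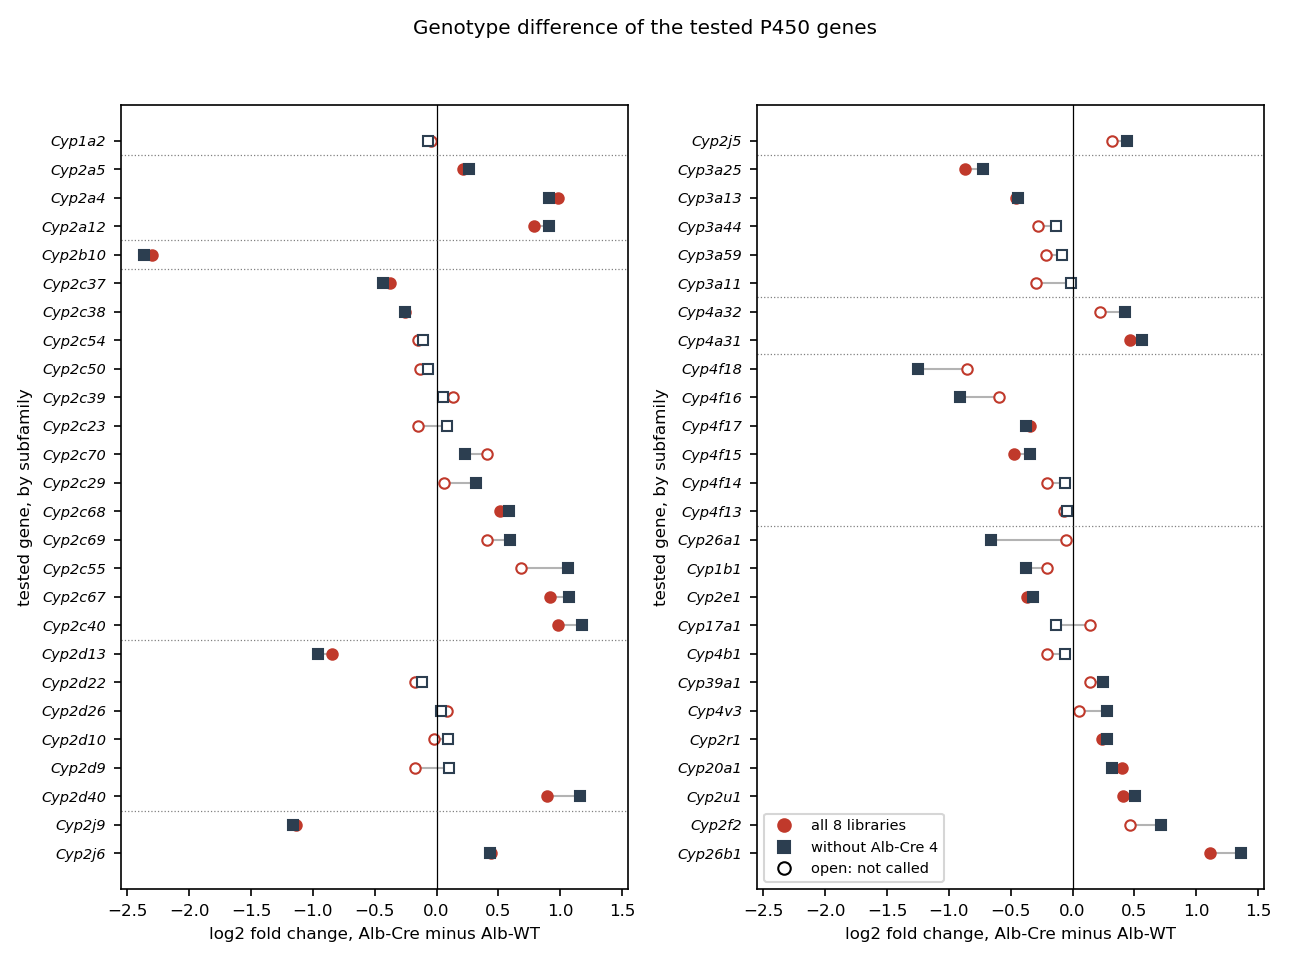
Log2 fold change (x axis, Alb-Cre minus Alb-WT on the log2(FPKM + 1) scale) of the 52 tested genes by subfamily, with all 8 libraries (red circles) and without Alb-Cre replicate 4 (dark squares), filled where called. Cyp2b10 lies farthest to the left, and 13 genes have an open circle beside a filled square.

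Calls among the regulators of P450 genes went both ways, at shares near those of all rows for the falls. Of 28 tested nuclear receptors and other regulators 5 rose (17.9%, beside 8.48% of all tested rows) and 8 fell (28.6%, beside 23.3%), with a median log2 fold change of -0.14 beside -0.13 over all rows. Besides Nr1i3, the coactivator gene Ppargc1a fell (log2 fold change -0.70, SE 0.07, limma adjusted p = 0.000494). The clock-controlled factors Tef (log2 fold change 0.42, limma adjusted p = 0.011) and Dbp (0.78, adjusted p = 0.0179) rose, and Dbp was too low to be tested without Alb-Cre replicate 4. With all libraries Dbp reached the testing level only through Alb-Cre (mean 1.02 against 0.143 FPKM). The PXR gene Nr1i2 was just past the threshold (log2 fold change 0.20, limma adjusted p = 0.0499), while Hnf4a (-0.15) and Ahr (-0.44) did not pass with all libraries and were called lower without replicate 4 (limma adjusted p = 0.0205 and 6.45e-06). The Nr1i2 call ended without any library other than Alb-Cre replicate 4 (adjusted p 0.0629 to 0.132) and without a filter, under common-sum or quantile scaling and with voom (0.0503 to 0.154), and that of Dbp without Alb-WT replicate 1 (0.0546). Without Alb-Cre replicate 4, 4 regulators were higher and 14 lower of 27 tested (14.8% and 51.9%, beside 15.2% and 46.1% of all rows). Leaving out any other library gave 2 to 3 higher and 5 to 7 lower.

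The growth hormone pathway sets the sex bias of many P450 genes. Of its 10 tested genes 3 rose and 3 fell, and without Alb-Cre replicate 4 the counts were 3 higher and 5 lower. Without any other single library 2 to 3 were higher and 3 lower. Onecut1 stood at 1.66, 1.63, 1.73 and 0.789 FPKM in Alb-Cre and 0.0870, 0.281, 0.153 and 0.0853 FPKM in Alb-WT (log2 fold change 1.07, SE 0.14, limma adjusted p = 0.00152), and Igf1 rose as well (log2 fold change 0.42, limma adjusted p = 0.0101). Onecut1 reached the testing level only through Alb-Cre, its Alb-WT mean being 0.152 FPKM. Stat5b, the main growth hormone transducer, stood at 7.63, 7.67, 8.52 and 8.22 FPKM in Alb-Cre and 13.3, 13.1, 13.3 and 13.1 FPKM in Alb-WT (log2 fold change -0.66, SE 0.06, limma adjusted p = 0.000255), and Bcl6, a repressor in this pathway, fell too (log2 fold change -1.36, limma adjusted p = 0.00415). The groups did not overlap in any of these 4 genes. Of 6 male-biased P450 genes 3 rose (Cyp2u1 and the non-members Cyp7b1 and Cyp4a12b) and none fell, and of 9 tested female-biased ones 3 rose (Cyp2a4, Cyp2c40 and the non-member Cyp4a10) and Cyp2b10 fell. Without Alb-Cre replicate 4, 5 male-biased genes were higher and none lower, and 4 female-biased genes were higher and 2 lower. The male-biased count was 2 without Alb-Cre replicate 1 or Alb-WT replicate 1. Y-linked transcripts (4 genes) summed to at most 30.3 FPKM and were present in all 8 libraries.

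The enzymes need electrons and heme. Of 9 tested redox and membrane partners 3 rose and 1 fell (33.3% and 11.1%, beside 8.48% and 23.3% of all tested rows). The counts were 4 and 2 without Alb-Cre replicate 4 (44.4% and 22.2%, beside 15.2% and 46.1%). Leaving out any other single library gave 1 and 0. Cyb5r3 (log2 fold change 0.42, limma adjusted p = 0.00563) and Pgrmc2 (log2 fold change 0.26, limma adjusted p = 0.0315) rose, Cyb5r1 fell (log2 fold change -0.41, limma adjusted p = 0.0282), and the reductase Por did not pass with all libraries (log2 fold change -0.06, limma adjusted p = 0.546) but was called lower without Alb-Cre replicate 4 (log2 fold change -0.13, limma adjusted p = 0.0276). Of 11 heme genes 2 rose and 2 fell (18.2% each), against 3 and 3 without Alb-Cre replicate 4 (27.3% each). Leaving out any other single library gave 2 and 0. Alas1, the rate-limiting enzyme, stood at 38.6, 37.8, 39.4 and 33.4 FPKM in Alb-Cre and 27.4, 26.1, 28.2 and 27.8 FPKM in Alb-WT (log2 fold change 0.43, SE 0.07, limma adjusted p = 0.00345). Alad rose as well (log2 fold change 0.58, limma adjusted p = 0.0036). The heme-degrading Hmox1 fell (log2 fold change -1.32, limma adjusted p = 0.0213), with 9.25 to 9.86 FPKM in Alb-Cre replicates 1 to 3, 31.5 FPKM in replicate 4 and 32.5 to 34.9 FPKM in Alb-WT, an order it shared with the macrophage markers (log2 fold change -1.73, limma adjusted p = 1.49e-09 without replicate 4). Fech, which inserts the iron, fell slightly (log2 fold change -0.23, limma adjusted p = 0.0368). The calls of Pgrmc2 (adjusted p 0.065 to 0.0896), Cyb5r1 (0.0533 to 0.0787), Hmox1 (0.0515 to 0.0627) and Fech (0.0555 to 0.104) ended without any library other than Alb-Cre replicate 4. Those of Pgrmc2, Cyb5r1 and Fech also ended under quantile normalization, that of Pgrmc2 under common-sum scaling and that of Fech under median-of-ratios scaling.

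**Figure D5:**
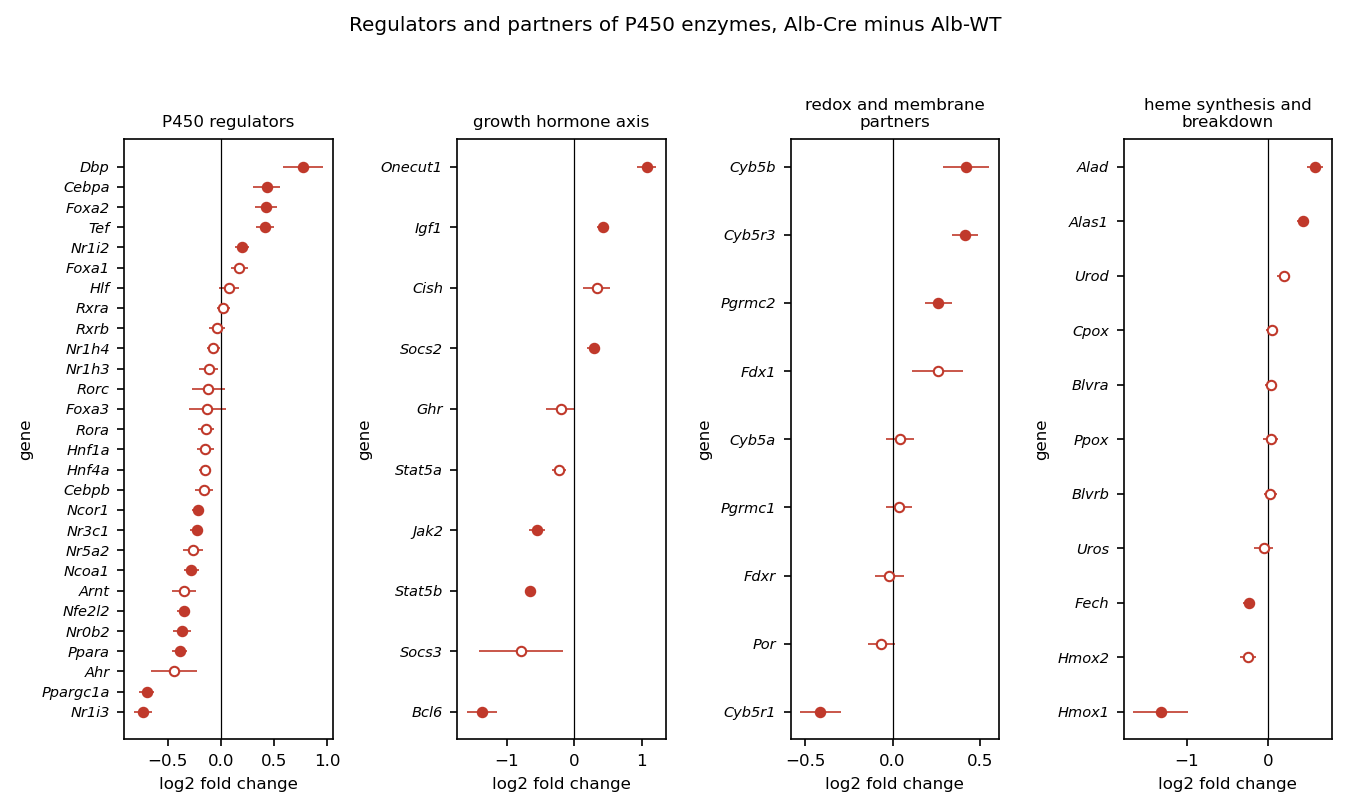
Log2 fold change with its SE (x axis, all 8 libraries) of tested genes that regulate P450 genes, act in the growth hormone pathway, pass electrons to P450 enzymes or make and break down heme (4 panels), filled where called. Nr1i3 and Ppargc1a lie lowest among the regulators, and Alad and Alas1 are the called rises among the heme genes.

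Other genes of the first phase of drug metabolism gave 3 rises and 3 falls among 22 tested (13.6% each, beside 8.48% and 23.3% of all tested rows). Fmo5 (log2 fold change 0.71, limma adjusted p = 0.00091) and Aldh1a7 (log2 fold change 0.64, limma adjusted p = 0.000934) rose, while Dpyd (log2 fold change -0.58, limma adjusted p = 0.00705) and Fmo1 (log2 fold change -0.35, limma adjusted p = 0.0172) fell. Fmo1 was not called without Alb-Cre replicate 1 or Alb-WT replicate 1 (adjusted p 0.0512 to 0.0541), and under median-of-ratios scaling neither Fmo1 (0.266) nor Dpyd (0.0663) passed. Without Alb-Cre replicate 4, 15 of the genes were higher and 5 lower (68.2% and 22.7%, beside 15.2% and 46.1% of all rows). Leaving out any other single library gave 2 to 3 higher and 1 to 2 lower. By position in the lobule, 1 of 10 P450 genes known as pericentral rose (Cyp2a5) and 3 fell (Cyp2e1, Cyp2c37 and the non-member Cyp7a1), with a median of -0.22. Without Alb-Cre replicate 4 the counts were 2 higher and 4 lower, and without any other single library none was higher and 3 were lower. Of 10 tested pericentral genes outside the family 1 rose and 2 fell, against 2 and 3 without Alb-Cre replicate 4 (9 tested) and 1 and 1 without any other library. Of 12 periportal ones none rose and 2 fell, against 1 and 5 without Alb-Cre replicate 4 and 0 and 1 to 2 without any other library.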

How the data were processed

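Total RNA of liver was sequenced in 4 Alb-Cre and 4 Alb-WT libraries, grouped by the sample titles. The authors deposited FPKM values per gene. HISAT2 2.0.5 and the builds hg38 and mm39 stand in the submitters' processing notes without roles, and the counting tool, annotation and strand setting were not given in the sources used here. The descriptions also name 10x Genomics, a single-cell supplier, while the table has 1 column per library. It holds no 0, and genes not listed are not analysed here.

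Log2(FPKM + 1) was tested with limma 3.58.1 (R 4.3.3; empirical Bayes with trend, two-sided) over the 11077 rows averaging 0.5 FPKM or more. Benjamini-Hochberg adjustment ran over these rows, with calls under 0.05. The steps between FPKM values gave whole fragments for all 13703 rows (relative tolerance 1e-08), 32524927 to 38893858 per library, used only in voom. The fit was tested on simulated data with far fewer changed genes than were called here and no library set apart from its group. That test does not cover the effect of Alb-Cre replicate 4. Coding sequences come from GENCODE M21 (61 of 62 genes) and promoters from RefSeq (GRCm38.p6, 50 of 62 genes matched). Genes were named with all libraries if, within their subfamily, they had the highest mean or the smallest p among calls in a direction (3 each for the remaining subfamilies). Other genes of at least 1 FPKM were named with their log2 fold change, and of each list the called genes of smallest p. A listed gene is not reported here. The members, lists and settings were chosen with earlier results of these data known. Alternatives were other pseudocounts, filters, scalings, sample weights, voom, a replicate block and leaving out each library. Python 3.11.15 was used for the rest.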

Additional observations from a re-analysis of the deposited data

Results flagged for a closer look

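In 25 of 124 groups of 4 libraries (20.2%), from 24 of the 62 P450 genes, the gap between the highest or lowest library and its nearest neighbour took up more of the group's range than the 95% limit of Dixon's test allows. Chance flags about 1 in 20 groups, and genes that vary together are not independent groups. Of the 25, 15 were Alb-Cre replicate 4.

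That library was highest in 6 genes, and its gap took 0.883 of the range for Cyp17a1, 0.994 for Cyp1b1, 0.974 for Cyp26a1, 0.87 for Cyp2c70, 0.83 for Cyp2d13 and 0.885 for Cyp4f18. It was lowest in 9 genes, with 0.861 for Cyp2a12, 0.864 for Cyp2c23, 0.84 for Cyp2c69, 0.931 for Cyp2d40, 0.86 for Cyp2d9, 0.881 for Cyp2f2, 0.941 for Cyp2j5, 0.872 for Cyp2r1 and 0.855 for Cyp4v3. Alb-Cre replicate 2 was highest for Cyp3a13 (0.882) and lowest for Cyp4f17 (0.96).

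In Alb-WT, replicate 1 was lowest for Cyp2a5 (0.95) and replicate 2 highest for Cyp2e1 (0.929). Replicate 3 was highest for Cyp26a1 (0.894) and Cyp2d12 (0.881) and lowest for Cyp4b1 (0.882). Replicate 4 was highest for Cyp1a2 (0.895) and lowest for Cyp3a11 (0.926) and Cyp3a59 (0.895). The Alb-WT libraries lay close together for most of these genes, so a small gap could take up much of the range.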

How the results depend on the processing

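None of the called P450 genes reversed its direction under the alternatives run. The 13 genes called higher were 13 with a pseudocount of 0.1, without a filter, with quantile normalization and with voom, 10 once scaled to equal FPKM sums and 15 after median-of-ratios scaling. They were 8 with a mean of at least 5 FPKM, where fewer genes were tested, and 22 with sample quality weights, which gave Alb-Cre replicate 4 a weight of 0.0781. The 10 called lower were 8 to 15 under the other scalings, filters, weights and voom but 5 after median-of-ratios scaling, the cause of which was not tested. Leaving out 1 library gave 8 to 22 higher and 7 to 14 lower, the highest counts without Alb-Cre replicate 4. Of the 23 calls, 14 held without each library in turn (7 higher and 7 lower).

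Both groups carry replicate numbers 1 to 4, but same-numbered libraries deviated together at correlations of only -0.0968 to 0.0131, and no library correlated best with its own number. With the replicate block 10 genes were higher and 7 lower. Precision is limited by 4 libraries a group, by few fragments in the lowest genes and by near-identical copies among which fragments may have been split.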

Other observations

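P450 rows outside the rule moved as well. Cyp51, the lanosterol demethylase of cholesterol synthesis, stood at 60.8, 56.1, 57.8 and 73.0 FPKM in Alb-Cre and 36.1, 37.7, 35.9 and 35.3 FPKM in Alb-WT, without overlap (log2 fold change 0.75, SE 0.09, limma adjusted p = 0.000805). Cyp4a12b rose (log2 fold change 0.90, limma adjusted p = 0.00836). Its relative Cyp4a12a, the male-biased arachidonic acid hydroxylase, was at 125 to 141 FPKM in Alb-Cre replicates 1 to 3, 28.5 FPKM in replicate 4 and 48.1 to 51.4 FPKM in Alb-WT. It did not pass with all libraries (log2 fold change 0.85, limma adjusted p = 0.167) and was higher without replicate 4 (log2 fold change 1.40, limma adjusted p = 1.08e-08).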
